A study of Mus musculus with 8 samples.

Results

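Glycosyltransferases that begin, extend and cap mucin-type sugar chains were followed as 74 genes in ileal crypt cells. They were chosen by symbol among the 55487 named genes of the table, as every gene whose symbol starts with Fut, St3gal, St6gal, St6galnac, B3gnt, B3galt, B4galt, B4galnt, Galnt, Gcnt or C1galt and continues with a digit. By role they were 9 fucosyltransferases, 15 sialyltransferases, 19 chain-initiating genes (Galnt) and 31 core and chain-extending genes. The 74 include a pseudogene (Fut4-ps1), an antisense transcript (Galnt6os), the readthrough gene Galnt2l and 2 identifiers that share the symbol St6galnac2. A low-count filter kept 51 of them among the 14011 genes tested.

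Mucin-type glycosylation starts in the Golgi, where polypeptide GalNAc transferases of the Galnt family attach N-acetylgalactosamine to serine or threonine. Core enzymes then add galactose or N-acetylglucosamine, further enzymes lengthen the chain, and fucosyltransferases and sialyltransferases cap its ends. In the small intestine such chains coat the secreted and membrane mucins, and fucose placed by Fut2 is displayed on the epithelial surface to gut microbes. Several of the enzymes act mainly on N-glycans or glycolipids instead, and the symbol rule takes them in as well.

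Total RNA from unsorted ileal crypt cells of C57BL/6 mice had been sequenced. One group of mice had received 20 mg/kg of CPT-11 (irinotecan, a chemotherapy drug whose active form blocks topoisomerase I) over 7 days, and the other group vehicle. Each group had 4 libraries, with 20795761 to 22307604 counts per library after CPT-11 and 20790164 to 23479121 after vehicle. The labels give neither age nor sex and do not state whether each library is another animal, so the p-values below describe the spread among these libraries, which may be technical.

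CPT-11 replicates 2 and 4 stood apart in how reads spread over long and short genes. The slope of each library's log2 ratio to the mean of all libraries on log2 gene length was -0.336 and -0.141 in these 2 libraries, 0.0103 and 0.149 in the other 2 CPT-11 libraries, and between 0.0474 and 0.151 in the vehicle libraries. CPT-11 replicate 2 was the lowest library of its group for 28 of the 51 tested glycosyltransferase genes (54.9%), against 39% of all genes tested, and for 9 of the 11 tested chain-initiating genes. Among markers of crypt epithelium, Epcam stood at 1798 ± 149 CPM (counts scaled to library size) after CPT-11 and 1517 ± 205 CPM after vehicle (SD, n = 4 each), and 0 of 5 such markers passed the test by edgeR, DESeq2 or limma-voom, with 1 at an unadjusted p below 0.05. The stem cell markers summed to 322 to 487 CPM after CPT-11 against 1243 to 1469 CPM after vehicle, and 3 of 4 fell. Enterocyte markers summed to 18078 to 58432 CPM against 11306 to 19035 CPM, with 1 of 9 higher, and goblet cell markers to 11227 to 39046 CPM against 11609 to 15440 CPM, with 0 of 9 called by any of the 3 tools and 1 at an unadjusted p below 0.05. Paneth cell markers summed to 17261 to 23785 CPM against 25710 to 36820 CPM. This sum was made up mostly of Lyz1 (mean 12828 against 19358 CPM) and Itln1 (5093 against 9106 CPM). Of the Paneth markers, 3 had negative log2 fold changes and 2 positive ones, Mptx2 (0.29) and Mmp7 (0.13). None of the 5 Paneth markers passed in edgeR, 2 had an unadjusted p below 0.05, and DESeq2 called 2 and limma-voom 3 lower. B and plasma cell markers summed to 7.45 to 16.1 CPM against 1.44 to 5.89 CPM, with 4 of 5 tested markers higher. Markers of enteroendocrine, tuft, T and NK, myeloid, and stromal and endothelial cells had 0 calls in edgeR, with at most 2 per list at an unadjusted p below 0.05 and at most 2 per list in DESeq2 or limma-voom. The part of these shifts in the results below was not tested, and fewer cells of a type and less RNA per cell cannot be told apart in such preparations.

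The course of CPT-11 was followed by a rise of one terminal enzyme, the fucosyltransferase Fut2 (3.80-fold), and a fall of another, the fucosyltransferase Fut4 (to 0.564 of the vehicle level). No sialyltransferase, chain-initiating gene or core and chain-extending gene passed the test. The 2 called genes are 3.92% of the 51 tested, against 5.5% of all genes tested (770 of 14011; edgeR quasi-likelihood F test, Benjamini-Hochberg adjusted p below 0.05 over all genes). By direction, 1 of 51 was higher (1.96%) where 2.98% of all genes were, and 1 of 51 was lower (1.96%) where 2.52% of all genes were. In this fit, calls among the glycosyltransferase genes were thus near or below the share among all genes. At an unadjusted p below 0.05, 5 of the 51 were higher (9.8%, against 13.4% of all genes) and 8 lower (15.7%, against 11.2%). The 4 CPT-11 libraries all lay above the 4 vehicle libraries for 3 genes (5.88%, against 8.41% of all genes) and all below them for 7 genes (13.7%, against 10.1%).

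**Figure D1:**
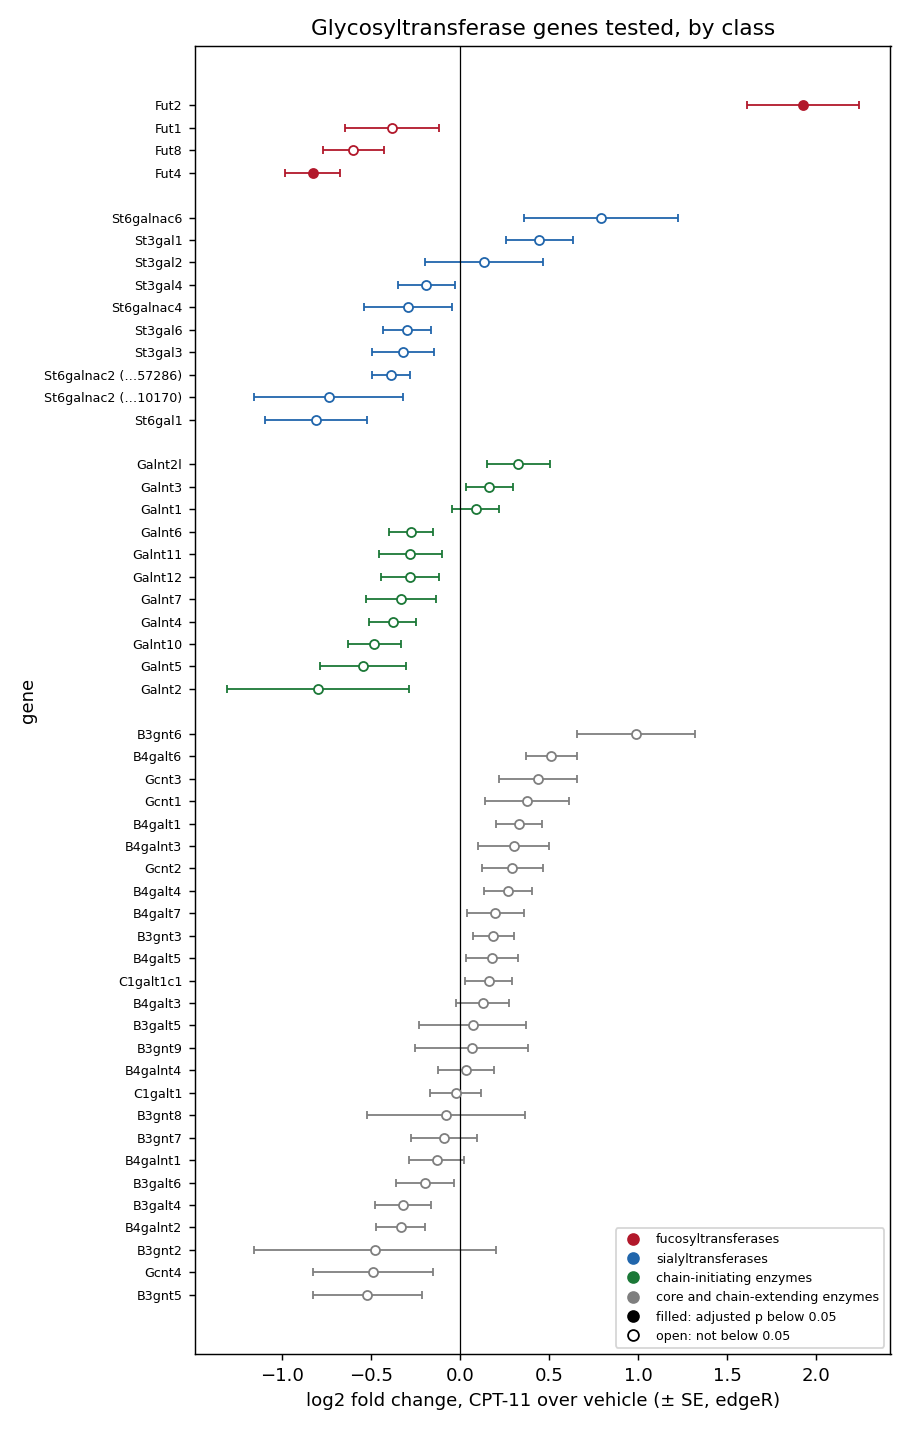
Log2 fold change of CPT-11 over vehicle (horizontal axis) for each of the 51 tested glycosyltransferase genes (rows, grouped by role), with bars of 1 standard error from edgeR and filled points for an adjusted p below 0.05. Only Fut2, at 1.93, and Fut4, at -0.83, are filled, and both are fucosyltransferases.

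Among the fucosyltransferases, Fut2, Fut4, Fut8 and Fut1 were tested. Fut2 and Fut1 are the enzymes that place fucose in alpha-1,2 linkage on terminal galactose and so make the H antigen, Fut4 adds alpha-1,3-linked fucose in structures such as Lewis x, and Fut8 adds the core fucose of N-glycans.

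Fut2 (ENSMUSG00000055978, chromosome 7, 45648591 to 45666394, minus strand, GRCm38) stood at 3.95, 3.52, 2.18 and 3.36 CPM in CPT-11 replicates 1 to 4, against 0.872, 1.23, 0.585 and 0.725 CPM in vehicle replicates 1 to 4. Every CPT-11 library was above every vehicle library, and CPT-11 replicate 3 was the lowest of its group. These levels rest on 87, 57, 52 and 68 counts after CPT-11 and 20, 26, 14 and 17 counts after vehicle. The log2 fold change was 1.93 ± 0.31 (SE, adjusted p = 0.00914, edgeR), and it stayed past the threshold in 18 of 18 alternatives, with an adjusted p of at most 0.0401. Leaving out CPT-11 replicates 2 and 4 together, the log2 fold change was 1.85. The same libraries had 1 of 9 enterocyte markers and 4 of 5 B and plasma cell markers higher and 3 of 4 stem cell markers lower, as given above.

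Fut2 has close relatives beside it on chromosome 7, and estimated counts can share reads between alike genes, so the coding sequences were compared. Fut1 (45617289 to 45621059, plus strand) matched Fut2 at 67.2% of 1027 aligned coding bases, and the longest stretch they share was 24 bases. The stretch is shown with 40 bases on either side, as coding strand in GENCODE M21 on GRCm38, from coding position 551 to 654 of Fut2 and 602 to 705 of Fut1. Capitals mark the shared bases and show how short the longest identical run is.
Fut2: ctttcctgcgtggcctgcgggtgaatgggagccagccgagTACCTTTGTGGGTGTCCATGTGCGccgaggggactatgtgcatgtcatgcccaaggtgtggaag
Fut1: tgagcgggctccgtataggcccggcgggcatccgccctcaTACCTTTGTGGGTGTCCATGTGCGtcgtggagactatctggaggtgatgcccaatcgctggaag
A further gene, Sec1 (45677686 to 45694402, minus strand), was closer, with 83.3% of 1007 aligned bases identical and a shared run of 180 bases. That run, which starts at coding position 372 of Fut2 and 444 of Sec1, is shown in capitals with 40 bases on either side, because reads that fall wholly inside it belong equally to both genes.
Fut2: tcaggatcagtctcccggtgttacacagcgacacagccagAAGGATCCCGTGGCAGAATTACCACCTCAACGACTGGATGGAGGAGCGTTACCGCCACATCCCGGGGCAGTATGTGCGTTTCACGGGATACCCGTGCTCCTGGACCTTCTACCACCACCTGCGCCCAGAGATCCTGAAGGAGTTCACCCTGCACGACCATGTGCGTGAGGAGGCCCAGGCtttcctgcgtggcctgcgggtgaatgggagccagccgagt
Sec1: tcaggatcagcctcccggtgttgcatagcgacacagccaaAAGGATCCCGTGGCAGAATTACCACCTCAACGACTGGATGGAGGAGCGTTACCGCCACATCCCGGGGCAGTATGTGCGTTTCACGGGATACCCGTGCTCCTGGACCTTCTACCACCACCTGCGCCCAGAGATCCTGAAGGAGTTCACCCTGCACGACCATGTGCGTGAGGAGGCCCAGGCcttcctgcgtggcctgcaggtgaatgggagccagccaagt
Sec1, which was named here for its sequence, had 1 count in CPT-11 replicate 1 and 0 counts in the other 7 libraries. Hardly any reads, from the shared run or elsewhere, were thus assigned to Sec1. Whether reads from the shared run were counted for Fut2 or left out cannot be told from these counts.

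Fut4 (ENSMUSG00000049307, chromosome 9, 14748320 to 14752393, minus strand) stood at 18.3, 12.5, 19.5 and 17.9 CPM in CPT-11 replicates 1 to 4, against 33.2, 28.0, 29.9 and 30.1 CPM in the vehicle replicates. All CPT-11 libraries lay below all vehicle libraries, and CPT-11 replicate 2 was the lowest. Its log2 fold change was -0.83 ± 0.16 (SE, adjusted p = 0.0169, edgeR). The call was lost without vehicle replicate 1 (adjusted p = 0.0694) or vehicle replicate 3 (0.0609), and held in the other 16 of 18 alternatives. The pseudogene Fut4-ps1 had 0 counts in every library and shared no run longer than 14 bases with the Fut4 transcript.

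Fut8 (chromosome 12, 77238125 to 77476338) did not pass, with 38.4, 23.3, 36.7 and 40.6 CPM after CPT-11 and 51.8, 55.2, 48.6 and 54.7 CPM after vehicle. The groups did not overlap, and CPT-11 replicate 2 was far below the other 3. The log2 fold change was -0.60 ± 0.17 (SE, adjusted p = 0.0704). Without CPT-11 replicate 2 it was smaller at -0.44 but past the threshold (adjusted p = 0.0268), and DESeq2 called it too (adjusted p = 0.0142). Fut1 had 1.95, 1.54, 2.34 and 3.07 CPM after CPT-11 and 2.66, 2.94, 3.59 and 2.43 CPM after vehicle, groups that overlapped (log2 fold change -0.38, adjusted p = 0.386).

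**Figure D2:**
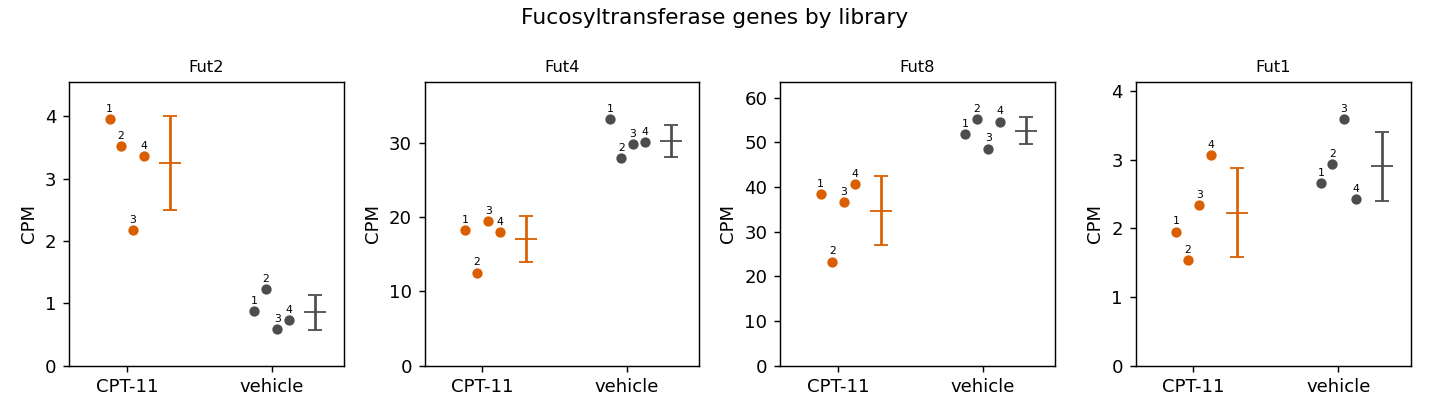
CPM (vertical axis, from 0) of the 4 tested fucosyltransferase genes in each CPT-11 library and each vehicle library, numbered by replicate, with the group mean and bars of 1 SD. Fut2 is higher in all 4 CPT-11 libraries, Fut4 and Fut8 are lower in all 4, and Fut1 overlaps between the groups.

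Levels of the alpha-1,2-fucosyltransferases were compared per kilobase of the gene length that the table gives. Fut2 stood at 1.10 ± 0.257 CPM per kb after CPT-11 and 0.289 ± 0.0942 after vehicle, and Fut1 at 0.863 ± 0.251 and 1.13 ± 0.195 (SD, n = 4 each). The ratio of Fut2 to Fut1 per kb was 1.77, 1.99, 0.811 and 0.958 in the CPT-11 replicates, against 0.286, 0.366, 0.142 and 0.260 in the vehicle replicates. All 4 CPT-11 ratios lay above all 4 vehicle ratios. Which gene of the pair is the more abundant after CPT-11 depends on the length used. With the union of annotated exons (5431 bases for Fut2 and 2786 for Fut1), an alternative chosen after seeing the data, the ratio was 1.04, 1.17, 0.476 and 0.563 in the CPT-11 replicates, against 0.168, 0.215, 0.0835 and 0.153 in the vehicle replicates. Mean levels per kb were then 0.599 ± 0.140 for Fut2 and 0.799 ± 0.233 for Fut1 after CPT-11, against 0.157 ± 0.0512 and 1.04 ± 0.180 after vehicle, so that Fut1 had the higher mean in both groups. Fut8 and Fut4 were compared by the table's lengths only, where both stood above Fut2 and Fut1. They were at 11.7 ± 2.62 and 4.19 ± 0.759 CPM per kb after CPT-11 against 17.6 ± 1.01 and 7.43 ± 0.531 after vehicle. Fut8 has 2980 bases in the table but 7902 in its union of exons, by which its level per kb would be lower. Fut4 has 4074 bases by either length. Summed over all 9 genes, fucosyltransferases came to 63.1, 43.7, 61.4 and 65.6 CPM after CPT-11 and 88.8, 87.7, 83.0 and 88.2 CPM after vehicle, a sum made up mostly of Fut8 and Fut4.

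Of the 5 fucosyltransferase genes that were not tested, Fut9 and Fut4-ps1 had 0 counts throughout and Fut10 had at most 4 counts. Fut7, which makes sialyl Lewis x on leukocytes, had 7, 9, 6 and 10 counts after CPT-11 and 1, 5, 4 and 3 counts after vehicle. Fut11 had 0, 36.2, 11 and 1.82 counts in CPT-11 replicates 1 to 4, and at most 3.99 in any vehicle library, so that CPT-11 replicates 1 and 4 lay within the vehicle range. Of the 23 untested glycosyltransferase genes, 3 had 0 counts in every library and were not fitted even without the filter. None of the others was called in that fit, but at such low counts a lack of calls says little.

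No sialyltransferase passed the test in edgeR (0 of 10 tested). At an unadjusted p below 0.05, 1 was higher and 2 lower (against 13.4% and 11.2% of all genes). Both DESeq2 and limma-voom called 1 lower, where they called 839 and 1635 of all 14011 genes lower. Their fold changes leaned downward, with 7 of 10 negative and a median log2 fold change of -0.29, against 48.7% negative and a median of 0.01 over all genes tested.

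St6galnac2, which links sialic acid to the first GalNAc of the chain (ENSMUSG00000057286, chromosome 11, 116675303 to 116694868), came nearest to the threshold. It stood at 50.9, 49.8, 55.7 and 58.0 CPM after CPT-11 and 65.8, 70.2, 73.4 and 71.0 CPM after vehicle. The groups did not overlap and the spread within each was small (log2 fold change -0.39 ± 0.11, adjusted p = 0.0663). DESeq2 called it (adjusted p = 0.00184). A second identifier with this symbol lies inside it and shares 383 exonic bases, and the 2 summed gave a log2 fold change of -0.39 as well (adjusted p = 0.0643).

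St6gal1, which caps N-glycans with alpha-2,6-linked sialic acid, had 2.18, 1.23, 1.63 and 2.37 CPM after CPT-11 and 3.49, 3.08, 2.25 and 4.22 CPM after vehicle. The highest CPT-11 library overlapped the lowest vehicle library (log2 fold change -0.81, adjusted p = 0.127). St3gal1, which sialylates the galactose of core 1 chains, leaned the other way at 21.6, 26.0, 25.7 and 15.1 CPM against 16.6, 18.7, 15.7 and 13.8 CPM (log2 fold change 0.45, adjusted p = 0.182). It passed without CPT-11 replicates 2 and 4 (0.55, adjusted p = 0.0398).

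St3gal4, which adds alpha-2,3-linked sialic acid to galactose at chain ends, was by far the most abundant sialyltransferase per length, at 285 ± 47.9 CPM per kb after CPT-11 and 325 ± 23.9 after vehicle. By library it had 501, 535, 722 and 634 CPM after CPT-11 and 612, 685, 695 and 732 CPM after vehicle, so the groups overlapped (log2 fold change -0.19, adjusted p = 0.478). For St3gal6, of the same linkage, it was -0.30 (adjusted p = 0.206). Together the 15 sialyltransferase genes summed to 606, 636, 837 and 738 CPM after CPT-11 and 734, 811, 820 and 855 CPM after vehicle, and these ranges overlapped too. Among the untested, St6galnac1, which makes sialyl-Tn, had 0 counts in every CPT-11 library and 1.02 counts in 1 vehicle library.

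Chain-initiating genes leaned the same way as the sialyltransferases. Of 11 tested, 8 had negative fold changes (against 48.7% of all genes), with a median log2 fold change of -0.28. Galnt2 and Galnt2l, which share exons, both count among the 11, and with overlapping genes summed 8 of 10 were negative. In 3 of the 11 the CPT-11 libraries lay wholly below the vehicle libraries (against 10.1% of all genes). None passed in edgeR, and 3 were lower at an unadjusted p below 0.05 (against 11.2% of all genes). Both DESeq2 and limma-voom called 2 lower, where they called 839 and 1635 of all 14011 genes lower. With CPT-11 replicates 2 and 4 left out, medians were smaller, at -0.10 for chain-initiating genes and -0.15 for sialyltransferases, while 8 of 11 and 7 of 11 tested genes were still negative. With the length trend removed in place of the libraries, the medians were -0.27 and -0.26.

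Galnt10 (ENSMUSG00000020520, chromosome 11, 57645442 to 57787514) stood at 93.3, 66.0, 102.5 and 96.8 CPM after CPT-11 and 126, 123, 131 and 119.7 CPM after vehicle. Its groups did not overlap, with CPT-11 replicate 2 lowest (log2 fold change -0.48 ± 0.15, adjusted p = 0.0881). Galnt4, which also glycosylates sites near ones already modified, had 86.9, 68.8, 94.0 and 83.3 CPM after CPT-11 and 122, 106, 102 and 102 CPM after vehicle. These groups were separate as well (log2 fold change -0.38, adjusted p = 0.119), and DESeq2 gave both genes an adjusted p below the threshold (0.0210 for Galnt10 and 0.0464 for Galnt4). With the length trend removed the log2 fold changes were -0.33 and -0.19.

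Galnt5 had 10.4, 4.87, 9.92 and 10.0 CPM after CPT-11 and 15.9, 10.9, 12.4 and 12.3 CPM after vehicle (log2 fold change -0.54, adjusted p = 0.196). CPT-11 replicate 2 was far below the rest of its group, and without it the log2 fold change was -0.34. Galnt6, the most abundant of the class per length (70.4 ± 5.85 CPM per kb after CPT-11 and 85.2 ± 7.30 after vehicle), gave a log2 fold change of -0.27 (adjusted p = 0.205). The value for Galnt1, a widely expressed initiator, was 0.09 (adjusted p = 0.696).

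Galnt2, another widely expressed initiator, shares most of its transcript with a readthrough gene. It stood at 44.0, 5.49, 42.4 and 13.7 CPM after CPT-11 and 45.4, 48.1, 48.4 and 42.1 CPM after vehicle, low in CPT-11 replicates 2 and 4. The readthrough gene Galnt2l, whose transcript shares a run of 3856 bases with that of Galnt2, was high in the same libraries, at 29.9, 39.5, 25.8 and 39.0 CPM after CPT-11 against 28.3, 26.2, 31.1 and 21.2 CPM after vehicle. Summed, the pair had 73.9, 45.0, 68.2 and 52.8 CPM after CPT-11 and 73.7, 74.3, 79.5 and 63.3 CPM after vehicle, a log2 fold change of -0.28 (adjusted p = 0.327), against -0.80 for Galnt2 alone (adjusted p = 0.353). The split between the 2 rows is uncertain.

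**Figure D3:**
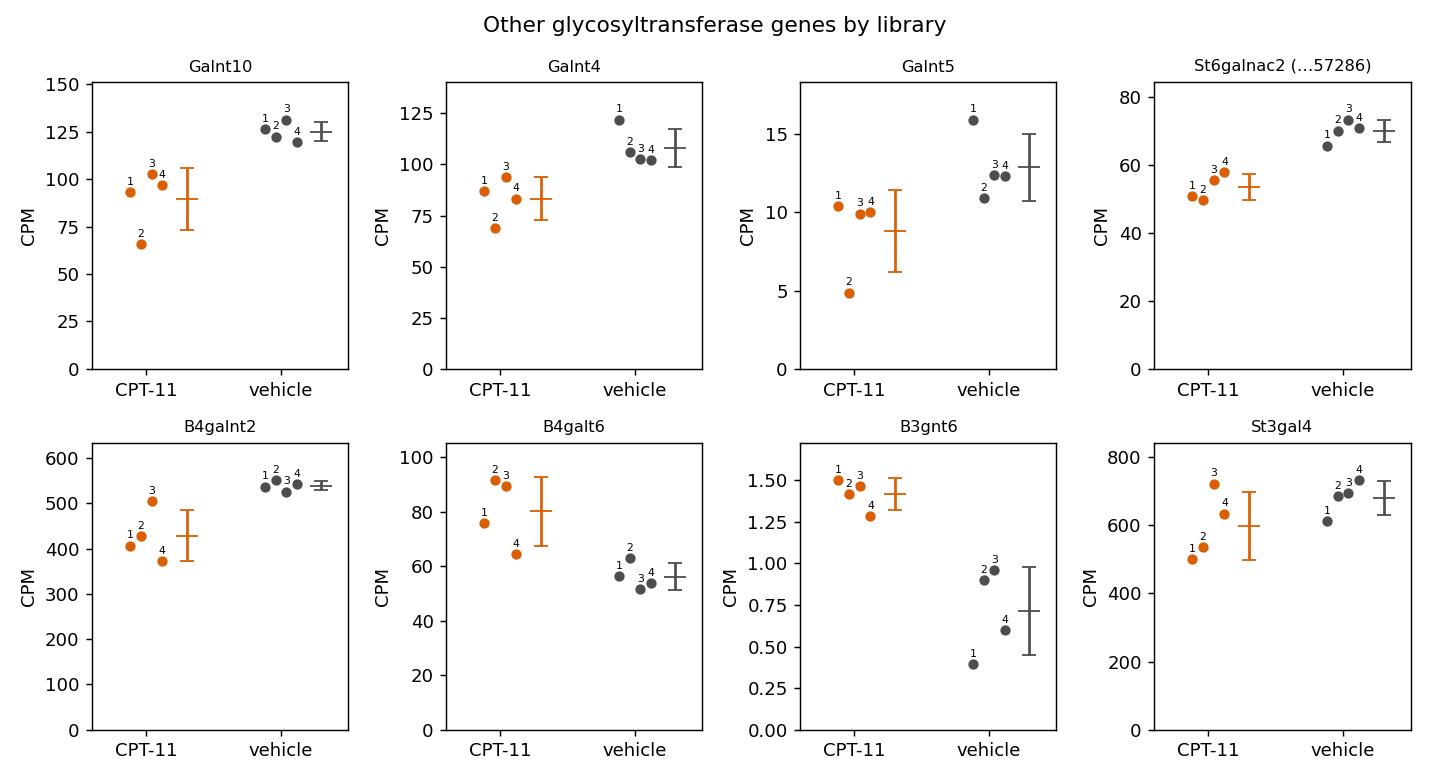
CPM (vertical axes, from 0) of 8 genes outside the fucosyltransferases in each CPT-11 library and each vehicle library, numbered by replicate, with the group mean and bars of 1 SD. Galnt10, Galnt4, Galnt5, St6galnac2 and B4galnt2 lie lower in all 4 CPT-11 libraries and B4galt6 and B3gnt6 higher, while St3gal4 overlaps.

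Core and chain-extending genes had no such lean, with 10 of 26 tested fold changes negative and a median log2 fold change of 0.10. None passed in edgeR, and 3 were higher and 1 lower at an unadjusted p below 0.05 (against 13.4% and 11.2% of all genes). DESeq2 called 1 higher, and limma-voom called 4 higher and 3 lower. Over all 14011 genes, DESeq2 called 1045 higher and 839 lower, and limma-voom 1535 and 1635. All 6 tested B4galt genes, which add galactose in beta-1,4 linkage, had positive fold changes, from 0.13 to 0.51. Over the 18 alternatives B4galt3 was the only one of these to fall below 0, by less than 0.05, with limma-voom, without CPT-11 replicate 2 and without replicates 2 and 4 together.

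B4galt6, which makes lactosylceramide, the precursor of most glycosphingolipids, stood at 75.7, 91.5, 89.4 and 64.4 CPM after CPT-11 and 56.4, 63.0, 51.5 and 53.9 CPM after vehicle. All CPT-11 libraries lay above all vehicle libraries (log2 fold change 0.51 ± 0.14, adjusted p = 0.0641), and 5 of 18 alternatives called it, DESeq2 among them (adjusted p = 0.0121). B4galt1, which works on N-glycans and O-glycans, had 75.7, 84.7, 80.9 and 59.5 CPM after CPT-11 and 60.1, 59.0, 58.6 and 61.0 CPM after vehicle, where CPT-11 replicate 4 alone lay within the vehicle range (log2 fold change 0.33, adjusted p = 0.153).

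The enzymes that set the core of the chain did not pass. B3gnt6, the core 3 synthase, had 1.498, 1.418, 1.465 and 1.285 CPM after CPT-11 and 0.392, 0.900, 0.960 and 0.597 CPM after vehicle. Its groups were separate, at low counts (log2 fold change 0.99 ± 0.33, adjusted p = 0.111). The log2 fold change of C1galt1, the core 1 synthase, was -0.02 (adjusted p = 0.933) and turned sign in 5 alternatives, and that of its chaperone C1galt1c1 (Cosmc) was 0.16 (adjusted p = 0.454). Gcnt1, which builds core 2 branches, stood at 0.38 on the same scale (adjusted p = 0.338).

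Gcnt3, which builds core 2 and core 4 branches on mucins, had 58.7, 92.2, 43.8 and 81.2 CPM after CPT-11 and 50.1, 51.4, 44.0 and 57.9 CPM after vehicle. It was high in CPT-11 replicates 2 and 4, and its log2 fold change of 0.44 (adjusted p = 0.241) was 0.01 without them. Goblet cell markers were highest in the same 2 libraries, at 39046 and 21290 CPM summed against 11227 to 12175 CPM in the other CPT-11 libraries. What part these cells had in the Gcnt3 level was not tested.

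B4galnt2, which adds GalNAc to sialylated galactose and makes the Sda antigen of the gut, stood at 406, 428, 505 and 372 CPM after CPT-11 and 537, 551, 526 and 542 CPM after vehicle. Its groups did not overlap, with a far wider spread after CPT-11 (428 ± 56.3 CPM) than after vehicle (539 ± 10.2 CPM), and it did not pass (log2 fold change -0.33, adjusted p = 0.175). B4galnt1, the ganglioside GM2 synthase, gave -0.13 on that scale (adjusted p = 0.617), and B3gnt3, which extends core 1 chains, gave 0.19 (adjusted p = 0.335). B3gnt2, which extends polylactosamine, had 14.8, 0.247, 12.5 and 10.2 CPM after CPT-11 and 17.6, 10.6, 14.8 and 9.94 CPM after vehicle. It was nearly missing from CPT-11 replicate 2, and summed with Commd1b, which shares 2449 exonic bases with it, its log2 fold change was 0.01 (adjusted p = 0.977) in place of -0.47.

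Per length, 3 genes held most of the glycosyltransferase signal. St3gal4, B4galnt2 and B4galnt1 made up 53.3% to 58.9% of the summed CPM per kb of the 74 genes after CPT-11 and 57.9% to 60.6% after vehicle. B4galnt2 stood at 249 ± 32.7 CPM per kb after CPT-11 and 313 ± 5.93 after vehicle, and B4galnt1 at 134 ± 22.7 and 147 ± 12.5. Galnt6 and B3gnt3 came next by mean level. By the table's lengths Fut2 was 3rd of 9 fucosyltransferases after CPT-11 and 4th after vehicle, and its 1.10 CPM per kb after CPT-11 was still below the mean of each tested chain-initiating gene.

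**Figure D4:**
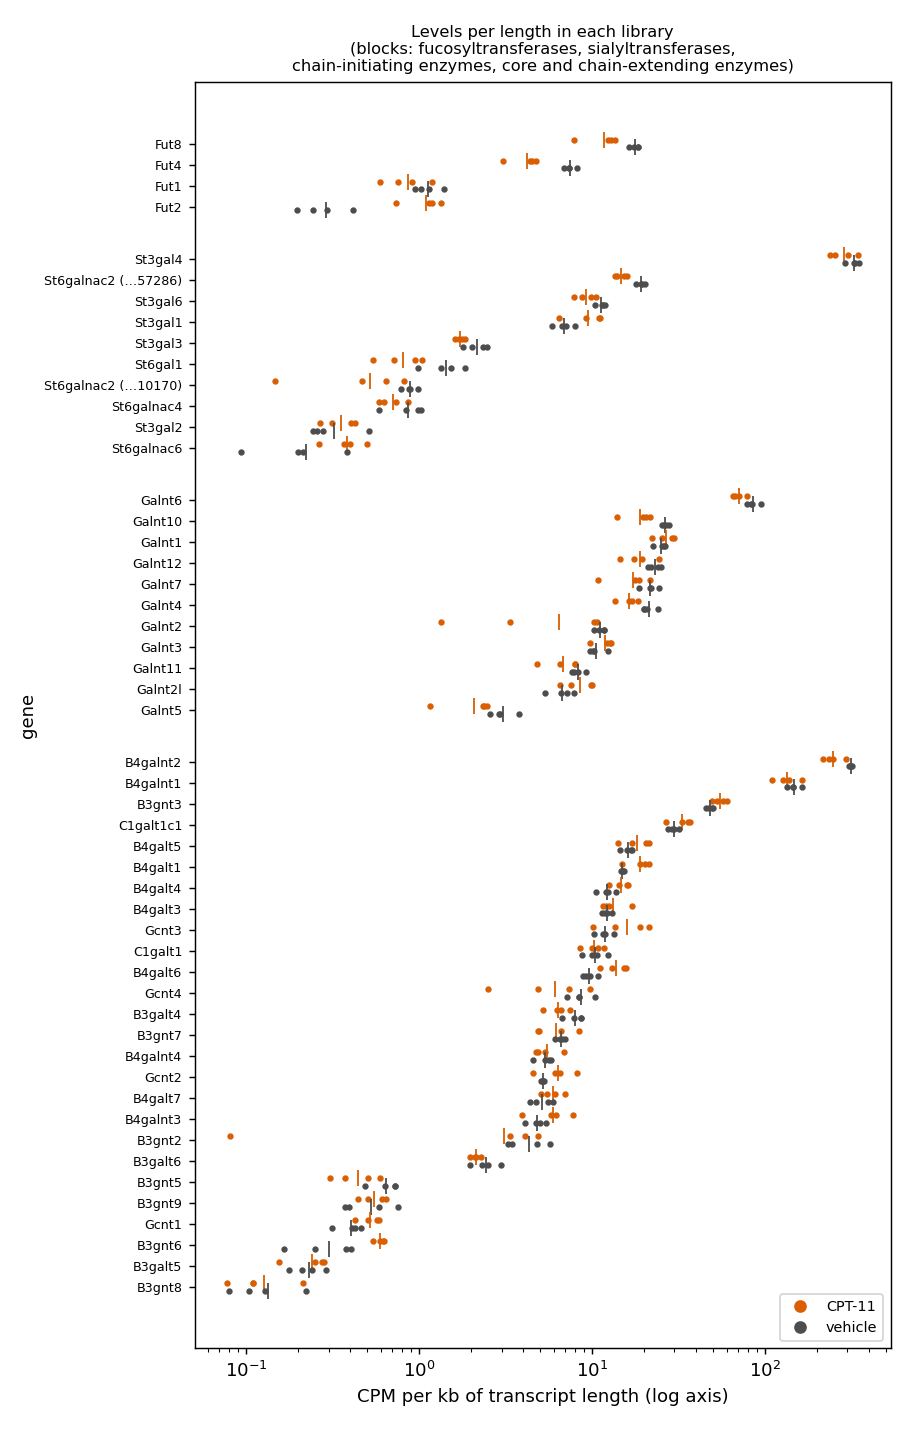
CPM per kb of gene length (horizontal log axis) of the 51 tested genes in each CPT-11 library and each vehicle library, with short bars for group means, in 4 blocks by role. St3gal4, B4galnt2 and B4galnt1 are highest at over 100 CPM per kb, and Fut2 has the largest fold change of the 51.

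Set side by side, 3 classes had negative median log2 fold changes, -0.49 for the 4 fucosyltransferases, -0.29 for the 10 sialyltransferases and -0.28 for the 11 chain-initiating genes. The 26 core and chain-extending genes had a median of 0.10. The classes follow gene symbols and do not separate the steps of the chain cleanly. Fut8, which acts on N-glycans, counts among the fucosyltransferases, and B4galnt2, which acts on sialylated galactose, among the core and chain-extending genes. Fut2 was the exception within its class, where the other 3 were negative. Over the 18 alternatives the medians ranged from -0.63 to -0.17 for fucosyltransferases, from -0.32 to -0.15 for sialyltransferases, from -0.36 to -0.10 for chain-initiating genes and from 0.04 to 0.16 for core and chain-extending genes. No test was made of the difference between classes.

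**Figure D5:**
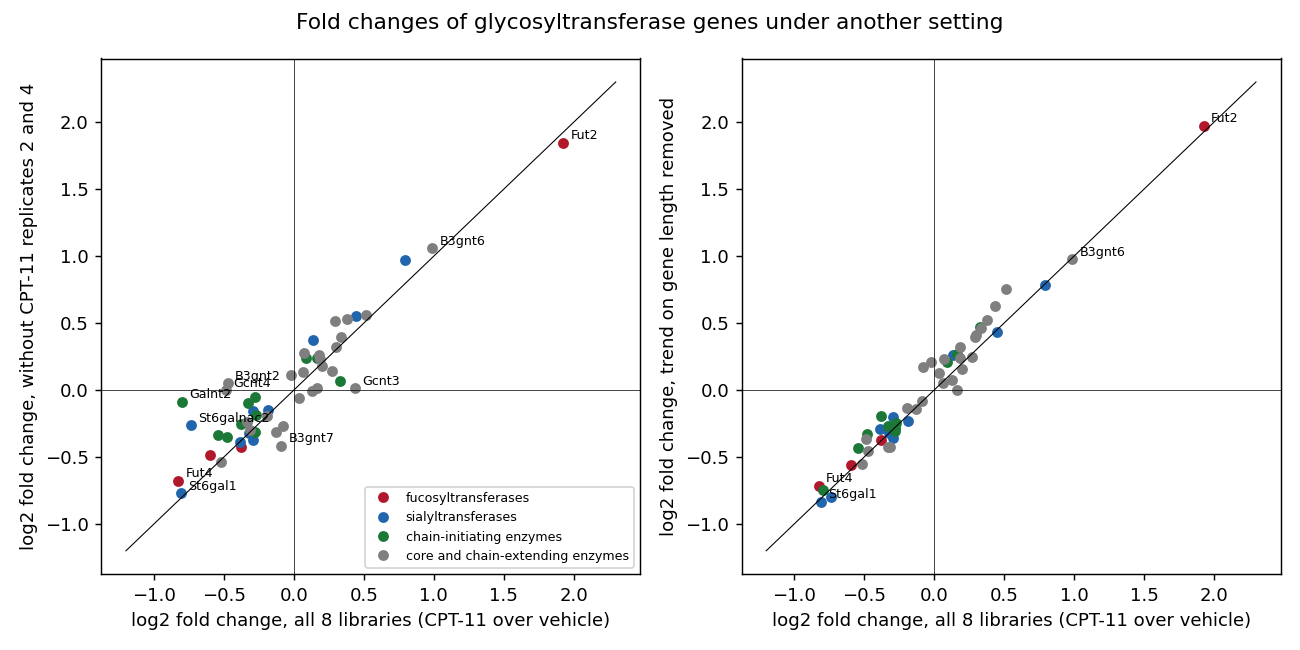
Log2 fold change of CPT-11 over vehicle for the tested glycosyltransferase genes with all 8 libraries (horizontal axes) against the value without CPT-11 replicates 2 and 4 (left) or with each library's trend on gene length removed (right), coloured by role, with the line of equal values. Fut2 and Fut4 stay near the line in both panels, whereas Galnt2, Gcnt4, B3gnt2 and Gcnt3 move to near 0 without the 2 libraries.

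Other genes of the pathway were read from lists of sugar donors, mucins, further transferases, sulfotransferases, glycan-removing enzymes and lectins. Of 25 tested genes that make or carry sugar nucleotides, edgeR called 0 higher and 2 lower (against 2.98% and 2.52% of all genes). The list's median log2 fold change was 0.20. At an unadjusted p below 0.05, 7 were higher and 2 lower (against 13.4% and 11.2% of all genes). DESeq2 called 4 higher and 2 lower (against 1045 and 839 of all 14011 genes), and limma-voom 6 higher and 2 lower (against 1535 and 1635). Without CPT-11 replicates 2 and 4, 0 were called higher and 2 lower (against 637 and 575 of all 14600 genes tested). The 2 genes called lower by edgeR, picked by their p from the 25, were Fcsk and Gne. Fcsk, the fucokinase that salvages free fucose for GDP-fucose, had 22.3, 17.7, 25.6 and 26.4 CPM after CPT-11 and 38.0, 40.6, 41.4 and 33.3 CPM after vehicle. Its groups were apart (log2 fold change -0.74 ± 0.15, adjusted p = 0.0234), and the call held in 14 of 18 alternatives, being lost without CPT-11 replicate 1 (0.0708) or without vehicle replicate 1 (0.0817), 2 (0.0696) or 3 (0.0885).

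Gne, which starts sialic acid synthesis, had 66.7, 70.4, 69.5 and 72.3 CPM after CPT-11 and 96.3, 96.0, 110.8 and 92.1 CPM after vehicle. The CPT-11 libraries were tightly grouped below the others (log2 fold change -0.50 ± 0.11, adjusted p = 0.0287). The call was less steady and held in 9 of 18 alternatives. With the length trend removed it was lost at a log2 fold change of -0.28 (adjusted p = 0.224), and without CPT-11 replicate 1 or 4 or any 1 vehicle library the adjusted p was between 0.0551 and 0.103. The rest of the sialic acid route leaned upward without passing, with log2 fold changes of 0.19 for Nans, 0.20 for Nanp, 0.48 for Cmas and 0.36 for the carrier Slc35a1. The other genes of the GDP-fucose route were Gmds at 0.15, Tsta3 at 0.32, Fpgt at 0.29 and the carrier Slc35c1 at 0.03, none of which passed.

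Among 13 tested glycan-removing enzymes, 2 were higher and 0 lower at an unadjusted p below 0.05 (against 13.4% and 11.2% of all genes). DESeq2 called 2 higher, and limma-voom 1 each way. Over all 14011 genes, DESeq2 called 1045 higher and 839 lower, and limma-voom 1535 and 1635. In edgeR 1 of the 13 enzymes rose, Fuca2, an alpha-L-fucosidase. It stood at 114, 116, 122 and 97.2 CPM after CPT-11 and 66.7, 87.5, 69.2 and 84.1 CPM after vehicle, with no overlap (log2 fold change 0.55 ± 0.13, adjusted p = 0.0462). The call sat close to the threshold and was lost in 8 of 18 alternatives, among them leaving out CPT-11 replicate 1 or 4 or any 1 vehicle library (adjusted p from 0.0538 to 0.157). Among 11 tested lectins, 4 were higher and 1 lower at an unadjusted p below 0.05 (against 13.4% and 11.2% of all genes). DESeq2 and limma-voom each called 3 higher and 1 lower, to be read beside their numbers over all genes just given. In edgeR 1 rose, Cd22, a B cell receptor for sialic acid. It stood at 2.04, 1.29, 1.80 and 2.22 CPM against 0.349, 0.0948, 0.585 and 0.128 CPM (log2 fold change 2.64, adjusted p = 0.0172). Cd22 was not called without vehicle replicate 1 (adjusted p = 0.0641) and was not tested under the stricter filter. It rose beside the B cell markers given above.

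Mucins, the main carriers of these chains, did not pass. Of 7 tested, 0 were called by edgeR, DESeq2 or limma-voom, with a median log2 fold change of 0.53. At an unadjusted p below 0.05, 2 were higher and 1 lower (against 13.4% and 11.2% of all genes). Muc2, the secreted goblet cell mucin, averaged 1554 ± 1098 CPM after CPT-11 and 792 ± 178 CPM after vehicle (SD, n = 4 each; adjusted p = 0.189), and the membrane mucin Muc13 averaged 1384 ± 234 and 1170 ± 102 CPM (adjusted p = 0.393). The mucin median was 0.20 once CPT-11 replicates 2 and 4 were left out. Of 17 tested transferases outside the symbol rule 0 passed in edgeR, and 1 had an unadjusted p below 0.05 and was lower. DESeq2 called 1 lower and limma-voom 1 each way, beside their numbers over all genes given above. Of 4 tested sulfotransferases 0 passed with any of the 3 tools, with 1 higher at an unadjusted p below 0.05.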

How the data were processed

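Gene expression was measured by RNA sequencing in 8 libraries, 4 per group. The submitters' processing notes name Bowtie2 2.4.1 and the mouse build GRCm38.p6. The authors deposited estimated counts per gene, not normalized, of which 10.3% to 11.1% per library were not whole. Which tool made the estimates, and with what strand setting, is not given in the sources used here. Rows with no gene name (543, holding 0.325% to 0.662% of counts) were left out.

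Rounded counts entered edgeR 4.0.16 under R 4.3.3 (TMM scaling, default expression filter, robust quasi-likelihood F test, two-sided), and Benjamini-Hochberg adjustment covered all 14011 tested genes, with 0.05 as the threshold. Standard errors come from the F statistic. CPM used TMM-scaled library sizes, and values per kb used the table's gene length. Positions come from GENCODE M21 (GRCm38), where all 74 genes were found. The test was also run on simulated counts, but these had no length trend such as the CPT-11 libraries showed, so that run says nothing about its effect.

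The genes and lists were chosen with earlier results of these data known. Genes named were Fut2, every called gene, the 3 most abundant per length and the 3 with the smallest p of each role, the core enzymes, and called genes of the lists. Fut7, Fut9, Fut10, Fut11, Fut4-ps1, St6galnac1, B4galt3, Galnt2, Galnt2l, B3gnt2, Gcnt4 and the uncalled list genes were picked with their values in view. The alternatives tried were scaling by RLE or by the upper quartile, no expression filter or one of 1 CPM in 4 libraries, DESeq2 1.42.0, limma-voom 3.58.1 with quality weights, the replicate block, removal of the length trend, each library left out, CPT-11 replicates 2 and 4 left out together, and, chosen after seeing the data, summing genes that share at least 300 exonic bases on 1 strand and, for the ratio of Fut2 to Fut1, the union of annotated exons as length.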

Additional observations from a re-analysis of the deposited data

Results flagged for a closer look

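Galnt5 had 4.87 CPM in CPT-11 replicate 2, far from the other CPT-11 libraries, which lay between 9.92 and 10.4 CPM. The gap to the nearest of them was 0.913 of the group's whole range. It was the 1 case in 48 groups examined, and chance marks about 1 group in 20. CPT-11 replicate 2 was also the lowest of its group for 9 of the 11 tested chain-initiating genes.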

How the results depend on the processing

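Fut2 was called in 18 of 18 alternatives and Fut4 in 16 of 18. The numbers of genes called, higher and lower, were 417 and 353 over all genes, against 1045 and 839 with DESeq2, 1535 and 1635 with limma-voom, 684 and 615 with the length trend removed, and 637 and 575 without CPT-11 replicates 2 and 4. Leaving out 1 library gave 132 to 769 higher and 104 to 753 lower. The cause was not tested. The glycosyltransferase genes called, of 51 tested, were 1 higher and 1 lower. These numbers were 2 and 5 with DESeq2, 5 and 8 with limma-voom, and 2 and 2 with the length trend removed. Without the 2 libraries, 5 and 3 of 52 tested were called, against 637 and 575 of 14600 among all genes, a larger share each way. With DESeq2 and limma-voom, the share called lower was above that of all genes and the share called higher below it. With 1 library left out, 1 to 2 were higher and 0 to 3 lower. Fucosyltransferases called lower were 2 in each of these 4 settings and 0 to 2 with 1 library left out, where vehicle replicates 1 and 3 gave the 0. Sialyltransferases, with 0 called, had 1 lower with DESeq2 and limma-voom, 1 higher and 1 lower without the 2 libraries, and 0 to 1 lower with 1 left out. Chain-initiating genes had 2 lower with DESeq2 and limma-voom, and 0 to 1 with 1 left out. Core and chain-extending genes had 1 higher with DESeq2, 4 higher and 3 lower with limma-voom, 1 higher with the length trend removed, 3 higher without the 2 libraries, and 0 to 1 higher with 1 left out. C1galt1 changed sign, from a log2 fold change of -0.02, to 0.056 with limma-voom, 0.21 with the length trend removed and 0.11 without the 2 libraries, and ranged from -0.10 to 0.073 with 1 library left out, above 0 without CPT-11 replicate 2 (0.064) or vehicle replicate 1 (0.073). The other genes named by the rule kept their direction, but among those picked with their values in view B4galt3 (0.13) was at -0.01 without the 2 libraries, and B3gnt2 (-0.47) was at 0.01 with overlapping genes summed and 0.05 without the 2 libraries. The mean Fut2 to Fut1 ratio per kb was 0.812 after CPT-11 and 0.155 after vehicle with union exon lengths, against 1.38 and 0.264 with the table's.

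The labels do not state whether the replicate numbers pair the libraries, and the main fit did not pair them. Same-numbered libraries correlated in their deviations at 0.234, 0.144, -0.119 and 0.0911, and differently numbered ones at -0.274 to 0.244. These correlations cannot settle whether a pairing exists. With the replicate block 397 genes were higher and 289 lower, with 1 glycosyltransferase gene each way. Of the other called genes named, Gne (adjusted p = 0.0686) and Fuca2 (0.0827) were not called with the block. At 14 to 26 counts per vehicle library, the size of the Fut2 change is less precise than that of abundant genes, and the 23 untested genes did not reach the count filter.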
